A study of Xenopus tropicalis with 12 samples.

Results

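Hind limb RNA of TRα (-/-) Xenopus tropicalis tadpoles was compared with hind limb RNA of wild type (WT) tadpoles when neither had received thyroid hormone. The comparison takes 6 of the 12 RNA-seq samples of the study: 3 libraries of TRα (-/-) hind limb without T3 and 3 libraries of WT hind limb without T3. T3 is the active form of thyroid hormone, and TRα is thyroid hormone receptor α. The other 6 libraries come from TRα (-/-) and WT hind limb after 18 h in 10 nM T3, and they show how the same genes stood in the presence of hormone. They also entered the filter on low counts, the scaling and the estimate of spread behind the calls without T3.

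All tadpoles were at stages 52 to 54 per the labels, which is around the onset of metamorphosis. The TRα (-/-) animals came from crossing frogs that carried 1 mutant copy of the gene, and per the labels the WT and TRα (-/-) tadpoles sampled had parents in common. The paper states that wild-type animals were bought from a supplier. It does not say whether the sampled WT tadpoles shared parents with the mutants. The mutation was in every cell of the animal, not in the limb alone. RNA of several tadpoles was merged for each group, and the 3 libraries of a group were made from that 1 merged sample. All p-values below therefore set a difference between pools against the spread of library making and sequencing, and the genotype cannot be told apart from any other difference between the 2 pools.

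Thyroid hormone receptors are transcription factors that bind thyroid hormone response elements as dimers with retinoid X receptors. Without T3 the bound receptor recruits corepressors and holds its target genes down, and with T3 it recruits coactivators and drives them. The limb of the tadpole is among the first organs to respond to the hormone at metamorphosis, growing and forming its pattern while other larval organs are still to be remodelled. The question of this comparison is what TRα does when no hormone is given. The gene of the other receptor, TRβ, remained in the TRα (-/-) tadpoles. The paper reports genes still bound by receptor in their limbs without T3, presumably by TRβ. In the results below, without T3 and without hormone mean that none was given. T3 made by the tadpoles themselves was not measured here.

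The deposited table names genes by Ensembl identifier, and 0 of its 19921 identifiers occurred in the name table used here. Symbols could be given to 13 protein-coding genes of the mitochondrial sequence, which matched RefSeq entries by start and end. Every other gene is given by its identifier and position, with no name and no function. The targeted gene and the markers of limb cell types were for this reason not checked in the libraries. In bulk tissue, moreover, a lower level can come from fewer cells of a type or from less RNA per cell. A higher level can likewise come from more cells of a type or from more RNA per cell. These cannot be told apart.

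Without T3 the libraries held 34722053 to 41118242 counts in TRα (-/-) and 34128557 to 42644751 in WT. The 100 genes with the most counts took 56.5% ± 0.52 of the counts in TRα (-/-) and 55.0% ± 0.087 in WT (SD, n = 3 libraries each). With T3 that share was 51.9% ± 0.27 in TRα (-/-) and 37.2% ± 0.51 in WT. At this depth 14320 genes were tested, and 2814 genes of the table had no count in any of the 6 libraries without T3.

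At a 2-fold threshold, loss of TRα without hormone went with more genes at a higher level than at a lower level. In TRα (-/-), 1861 genes were higher than in WT (13.0% of those tested) and 1053 were lower (7.35%), at an edgeR adjusted p under 0.05 and a difference of 2-fold or more. This is 1.77 higher genes for each lower gene. At larger differences the counts were as follows: 528 genes were higher and 137 lower by 4-fold or more, 165 and 32 by 8-fold or more, and 42 and 9 by 16-fold or more. The median log2 difference, TRα (-/-) over WT, was 1.52 among the higher genes and -1.32 among the lower genes, against 0.01 over all genes tested. Scaling by total counts alone moved the share of higher genes among those called to 55.5%, against 63.9% here. At the adjusted p alone, with no 2-fold threshold, that share was 50.4%, with 5565 genes higher and 5485 lower.

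The adjusted p alone was passed by 11050 genes, which is 77.2% of those tested, as libraries of 1 pool differ little: the coefficient of variation beyond counting noise was 0.0421. The 2-fold threshold therefore decided most of the calls, and 8136 genes passed the test with a difference under 2-fold. The libraries of the 2 genotypes did not overlap for 2876 of the 2914 genes called, beside 77.9% of all genes tested. If the libraries of each pool were summed and a coefficient of variation of 0.4 between pools were assumed, 107 genes would be called higher and 19 lower. With an assumed value of 0.2 it would be 2173 genes, all of them among the 2914.

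**Figure D1:**
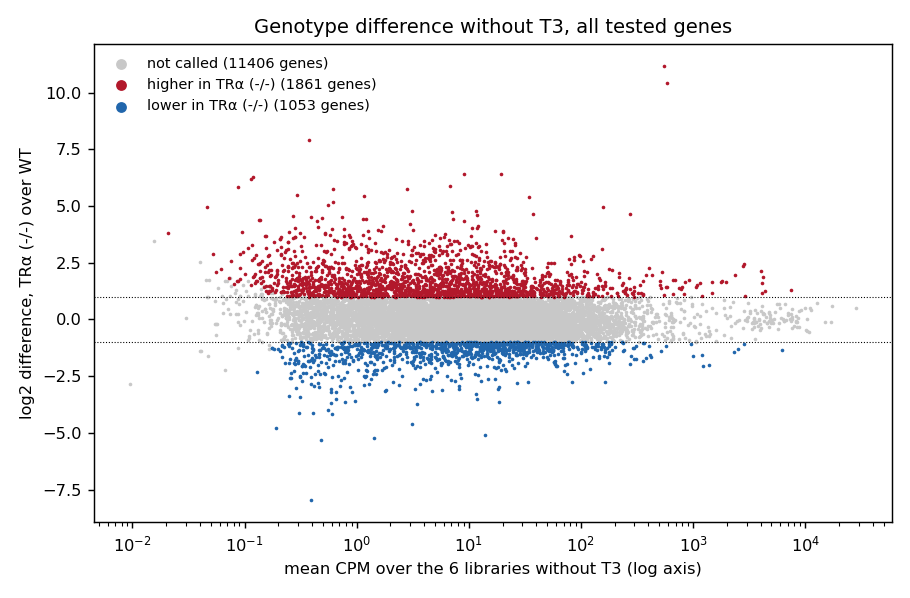
Difference of each tested gene between TRα (-/-) and WT without T3 (vertical axis, log2) against its mean level over the 6 libraries (horizontal axis, CPM, log scale). Red points are the 1861 genes higher in TRα (-/-), blue points the 1053 lower genes, grey points the genes not called, and dotted lines mark 2-fold. Higher genes reach larger differences than lower genes at most levels, and 2 abundant genes stand above all others at log2 differences of 11.18 and 10.41.

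The higher genes were mostly of modest level in WT. Their median level was 6.61 CPM in TRα (-/-) and 1.92 CPM in WT, where CPM gives a count relative to the TMM-scaled total of its library. The lower genes had a median of 4.89 CPM in TRα (-/-) and 13.3 CPM in WT. Over all genes tested the medians were 10.8 CPM in TRα (-/-) and 10.4 CPM in WT. The higher genes together gained 97370 CPM, and the 20 with the largest gain held 54.7% of it. The lower genes together dropped by 43230 CPM, and the 20 with the largest loss held 50.7% of that. Both sums depend on the scaling, as TMM factors were 0.854 to 0.876 in TRα (-/-) and 0.918 to 0.921 in WT. Gain and loss are therefore not to be set against each other as amounts of RNA.

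The largest differences were read from the 1728 called genes with no overlap between the genotypes and a mean of at least 5 CPM in the higher genotype, 1023 of them higher and 705 lower. A pair of short neighbouring genes on scaffold GL172993.1 led the higher genes. ENSXETG00000025667 (931135 to 932667, minus strand, 3 exon blocks of 581 bp in all) had 1055, 1095 and 1149 CPM in the TRα (-/-) libraries, against 0.507, 0.446 and 0.460 CPM in the WT libraries. In counts this is 32072, 34565 and 40352 reads in TRα (-/-), against 16, 14 and 18 in WT. The gene was close to silent in the WT pool and among the abundant transcripts of the TRα (-/-) pool. The mean CPM differed 2336-fold, or by 11.18 ± 0.07 on the log2 scale (SE; edgeR adjusted p = 1.05e-34). ENSXETG00000025664 (939457 to 940502, minus strand, 584 bp) had 1120.1, 1177 and 1223 CPM in TRα (-/-), against 0.982, 0.573 and 0.996 CPM in WT. Its log2 difference was 10.41 ± 0.08 (SE; edgeR adjusted p = 3.73e-33), and the WT libraries held 31, 18 and 39 reads.

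Both genes were still far higher in TRα (-/-) when T3 was present, by less. ENSXETG00000025667 had 629, 632 and 628 CPM in TRα (-/-) with T3, against 24.1, 26.0 and 25.1 CPM in WT with T3. On the log2 scale this is 4.65 (edgeR adjusted p = 1.38e-30). ENSXETG00000025664 had 549.8, 544 and 546 CPM in TRα (-/-) with T3, against 34.3, 36.3 and 35.5 CPM in WT with T3, which is 3.95 on the log2 scale (edgeR adjusted p = 9.97e-28). The levels in WT with T3 were thus above those in WT without T3 for both. The 2 genes are of like length and lie side by side. Reads could be shared between them if their sequences are alike, which was not tested, and their separate values are uncertain to that extent.

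ENSXETG00000024049 on GL172650.1 (2314600 to 2317301, plus strand, 5 exon blocks) was the third of the higher genes by size. It had 38.1, 38.0 and 38.7 CPM in TRα (-/-), against 0.317, 0.541 and 0.460 CPM in WT, a log2 difference of 6.43 ± 0.09 (SE; edgeR adjusted p = 2.33e-27). With T3 it had 26.6, 25.3 and 25.4 CPM in TRα (-/-), against 38.6, 38.1 and 39.7 CPM in WT. Without hormone, then, the level in TRα (-/-) was close in value to that of WT limbs given T3, a comparison that was not tested. With hormone the genotypes differed by -0.59 on the log2 scale (edgeR adjusted p = 3.87e-13), under 2-fold.

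ENSXETG00000004489 on GL172646.1 (5124826 to 5131273, minus strand, 10 exon blocks) had 18.1, 18.0 and 17.2 CPM in TRα (-/-), against 0.222, 0.255 and 0.153 CPM in WT. With T3 it had 0.445, 0.423 and 0.449 CPM in TRα (-/-), against 0.416, 0.246 and 0.331 CPM in WT. The TRα (-/-) pool without hormone was the one pool of the 4 with an appreciable level. The log2 difference was 6.41 ± 0.14 without T3 (SE; edgeR adjusted p = 6.61e-23) and 0.45 with T3 (edgeR adjusted p = 0.141).

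ENSXETG00000031753 on GL172687.1 (3147279 to 3156838, plus strand, 8 exon blocks) had 68.7, 68.4 and 64.9 CPM in TRα (-/-), against 1.65, 1.53 and 1.61 CPM in WT. ENSXETG00000013238 on GL173025.1 (920062 to 923030, minus strand, 4 exon blocks) had 301, 308 and 309 CPM in TRα (-/-), against 9.09, 9.93 and 10.3 CPM in WT. In T3-treated libraries both lay far below the TRα (-/-) level without T3. ENSXETG00000031753 had 2.10, 2.44 and 1.89 CPM in TRα (-/-) with T3, against 0.728, 0.985 and 0.642 CPM in WT with T3. ENSXETG00000013238 had 14.7, 15.2 and 14.1 CPM in TRα (-/-) with T3, against 4.22, 4.69 and 4.26 CPM in WT with T3. They were called higher in TRα (-/-) in both hormone states, at log2 differences of 5.40 without and 1.42 with T3 for the first of them and 4.96 without and 1.73 with T3 for the second.

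The remaining genes among the 8 with the largest rise were ENSXETG00000004749 and ENSXETG00000033806. ENSXETG00000004749 on GL172893.1 (866137 to 886237, minus strand) had 12.6, 13.6 and 13.7 CPM in TRα (-/-), against 0.222, 0.287 and 0.179 CPM in WT, a log2 difference of 5.86 ± 0.17 (SE; edgeR adjusted p = 6.97e-21). With T3 the difference was 1.12. ENSXETG00000033806 on GL172675.1 (3891931 to 3892176, plus strand, a single exon block of 246 bp) had 177, 174 and 179 reads in TRα (-/-), against 5, 3 and 2 reads in WT. It kept its difference in the presence of hormone, with log2 values of 5.76 without T3 (edgeR adjusted p = 1.21e-16) and 5.87 with T3 (edgeR adjusted p = 1.24e-14). In WT with T3 it had 0.0624, 0.0435 and 0 CPM, so the gene was nearly unread in every WT library.

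**Figure D2:**
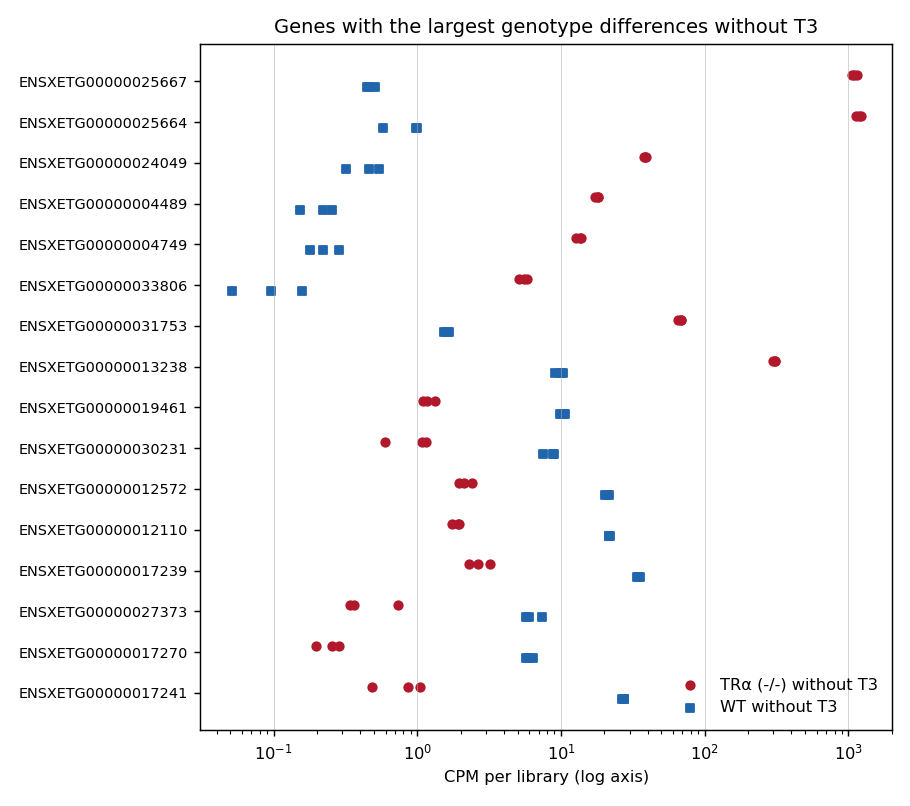
Level in each library (CPM, log axis) of the 8 genes with the largest positive difference, in the upper rows, and the 8 with the largest negative difference, in the lower rows. Red circles are the 3 TRα (-/-) libraries and blue squares the 3 WT libraries, all without T3. In each row the genotypes stand apart, which the choice of these genes required. Libraries of 1 genotype lie close together, with the widest spread where a level is under 1 CPM.

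The lower genes were led by a gene on scaffold GL173192.1. ENSXETG00000017241 (681870 to 703636, minus strand, 30 exon blocks) had 0.855, 1.05 and 0.484 CPM in TRα (-/-), against 27.2, 27.2 and 26.7 CPM in WT. The WT level was 34.1 times that in TRα (-/-), a log2 difference of -5.10 ± 0.13 (SE; edgeR adjusted p = 1.62e-21). With T3 it had 3.44, 2.46 and 2.95 CPM in TRα (-/-), against 1.08, 1.41 and 1.19 CPM in WT. WT limb without hormone was the single group in which the gene was read at more than a few CPM.

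That same pattern, high in WT without T3 and low in the other pools, was shared by all 8 genes with the largest fall. The choice of these genes fixed the part without T3. How many other lower genes were low in both pools with T3 was not counted. ENSXETG00000012110 on GL172810.1 (268 to 8754, plus strand, 6 exon blocks) had 1.74, 1.96 and 1.91 CPM in TRα (-/-), against 21.5, 21.4 and 21.8 CPM in WT, a log2 difference of -3.52 ± 0.09 (SE; edgeR adjusted p = 4.44e-22). With T3 it had 1.14, 1.22 and 1.28 CPM in TRα (-/-), against 0.333, 0.232 and 0.233 CPM in WT. ENSXETG00000012572 on GL173213.1 (421310 to 477353, minus strand, 24 exon blocks) had 2.40, 2.12 and 1.94 CPM in TRα (-/-), against 20.2, 21.7 and 21.1 CPM in WT. It did not pass the test with T3, where its libraries overlapped and the log2 difference was 0.30 (edgeR adjusted p = 0.188).

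ENSXETG00000027373 on GL173567.1 (157479 to 159119, minus strand, 2 exon blocks) had 0.362, 0.728 and 0.342 CPM in TRα (-/-), against 5.73, 7.39 and 6.003 CPM in WT. ENSXETG00000030231 on GL172719.1 (2682410 to 2692399, minus strand) had 0.592, 1.08 and 1.14 CPM in TRα (-/-), against 7.54, 8.82 and 8.86 CPM in WT. ENSXETG00000019461 on GL172674.1 (1961397 to 1972542, plus strand) had 1.09, 1.33 and 1.17 CPM in TRα (-/-), against 10.7, 9.81 and 10.3 CPM in WT. The log2 differences of these genes, in that order, were -3.74 ± 0.19, -3.15 ± 0.16 and -3.10 ± 0.12 (SE; edgeR adjusted p of 2.31e-15, 2.1e-15 and 1.2e-17). With T3, ENSXETG00000027373 and ENSXETG00000019461 were higher in TRα (-/-), by 2.03 and 1.12 on the log2 scale, while ENSXETG00000030231 gave 0.55 and did not pass (edgeR adjusted p = 0.203).

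Among abundant transcripts the largest gain in CPM belonged to ENSXETG00000025663 (GL172993.1, 952559 to 956327, minus strand), the next tested gene along the scaffold after the pair named first. It had 10223, 10514 and 10733 CPM in TRα (-/-), against 4246, 4328 and 4366 CPM in WT, a log2 difference of 1.28 ± 0.03 (SE; edgeR adjusted p = 1.69e-22). With T3 the order turned, with 7002, 6977 and 6814 CPM in TRα (-/-) against 7723, 8608 and 8156 CPM in WT, a log2 difference of -0.24 that is under 2-fold. The gene was abundant in all 4 pools, and its mean CPM without T3 differed 2.43-fold.

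ENSXETG00000024043 on GL172650.1 (2211914 to 2214658, plus strand) had 6428, 6540.3 and 6842 CPM in TRα (-/-), against 1483, 1506 and 1540.2 CPM in WT. ENSXETG00000010707 on GL173462.1 (131588 to 137969, minus strand) had 6429.9, 6646 and 6620.2 CPM in TRα (-/-), against 1836, 1812 and 1749.7 CPM in WT. ENSXETG00000024534 on GL173281.1 (137042 to 141067, plus strand) had 6038, 6259.8 and 6360.1 CPM in TRα (-/-), against 2089, 2094 and 2024 CPM in WT. These 3 genes rose by 2.13, 1.87 and 1.59 on the log2 scale, each with an SE of 0.03. With T3, ENSXETG00000024043 was again called higher, by 1.63, whereas ENSXETG00000010707 and ENSXETG00000024534 differed by less than 2-fold, 0.30 and 0.87.

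On the lower side 4 abundant genes had the largest fall in CPM. ENSXETG00000008836 on GL172880.1 (1173906 to 1184351, plus strand, 23 exon blocks) had 3613, 3596 and 3449.6 CPM in TRα (-/-), against 8881, 9014 and 9041 CPM in WT, a log2 difference of -1.34 ± 0.03 (SE; edgeR adjusted p = 2.28e-23). With T3 it was higher in TRα (-/-), at 2667, 2660.0 and 2503 CPM against 679, 662 and 651 CPM in WT. The level in WT with T3 was the lowest of the 4 pools, and the level in TRα (-/-) moved far less between the hormone states.

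ENSXETG00000006635 on GL172639.1 (487632 to 501627, plus strand) had 1240.2, 1284 and 1270.3 CPM in TRα (-/-), against 3467, 3414 and 3354 CPM in WT. ENSXETG00000015477 on GL172671.1 (939243 to 957165, minus strand) had 1497, 1445 and 1423 CPM in TRα (-/-), against 3481, 3578 and 3741 CPM in WT. ENSXETG00000002211 on GL172882.1 (1463821 to 1467713, minus strand) had 1817, 1840.1 and 1839.5 CPM in TRα (-/-), against 3924, 3899 and 3783 CPM in WT. Their log2 differences were -1.43, -1.31 and -1.08, each with an SE of 0.03. Of these, ENSXETG00000002211 was close to the 2-fold threshold, and its call was lost when pools were summed with an assumed coefficient of variation of 0.2. All 3 differed by less than 2-fold with T3.

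Some genes were close to unread in 1 genotype without T3. Of the higher genes, 93 had at most 3 counts in every WT library without T3. Of the lower genes, 11 had at most 3 counts in every TRα (-/-) library without T3. Such genes could pass the filter on low counts only through the other groups, so a difference from some other group was favoured in advance. The share of all genes tested with so few counts in 1 genotype was not counted. ENSXETG00000007771 (GL172686.1, 3112597 to 3136763, 22 exon blocks) had 95, 52 and 70 counts in TRα (-/-), against 1, 2 and 2 in WT. The ratio of the depth-scaled sums was 45.6, with a 95% exact (Clopper-Pearson) interval from 19.3 to 142 that covers counting error only. ENSXETG00000000128 (GL173179.1, 763435 to 779473) had 32, 49 and 36 counts in TRα (-/-), against 0, 0 and 2 in WT, a ratio of 61.5 (16.7 to 514). ENSXETG00000001904 (GL173168.1, 362163 to 365378) had 33, 53 and 29 counts in TRα (-/-), against 0, 2 and 1 in WT, a ratio of 40.3 (13.5 to 198). All 3 were also called higher in TRα (-/-) with T3, where ENSXETG00000001904 had no count in any WT library. ENSXETG00000031046, named by the same rule and described with its run below, was not called with T3. Its log2 difference there was -0.54 (edgeR adjusted p = 0.384). For ENSXETG00000000128 and ENSXETG00000001904 the size of the ratio depends on single WT libraries. The fitted log2 difference of ENSXETG00000000128 was 5.74 and became 8.60 without WT replicate 3. That replicate held the gene's only reads in WT without T3, so that this last value depends on the prior count. The fitted log2 difference of ENSXETG00000001904 was 5.19 and became 6.11 without WT replicate 2.

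On the lower side ENSXETG00000021645 (GL173378.1, 102746 to 112503, 20 exon blocks) had 1, 1 and 0 counts in TRα (-/-), against 27, 28 and 41 in WT. The ratio, here WT over TRα (-/-), was 45.6, with an interval from 12.3 to 382. ENSXETG00000032369 (GL172737.1, 934303 to 935721) had 3, 1 and 2 counts in TRα (-/-), against 35, 25 and 59 in WT, a ratio of 18.9 (8.41 to 52.4). ENSXETG00000031149 (GL172842.1, 1197114 to 1210160) had 0, 3 and 3 counts in TRα (-/-), against 37, 34 and 34 in WT, and ENSXETG00000005120 (GL172899.1, 814567 to 818573) had 0, 2 and 2 in TRα (-/-), against 24, 29 and 26 in WT. Their ratios were 16.6 (7.39 to 46.4) and 18.8 (7.05 to 70.6). None of these 4 passed the test with T3, where the genotypes were both at a low level.

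Transcripts of the mitochondrial sequence were higher as a group in TRα (-/-) without T3. The mitochondrial genome encodes subunits of the respiratory chain and of ATP synthase together with the ribosomal and transfer RNAs of the organelle. Its genes took 2.80% ± 0.18 of all counts in TRα (-/-) and 1.56% ± 0.019 in WT (SD, n = 3 libraries each). The deposited file lists 37 mitochondrial genes. Of the 23 that were tested 16 were called higher (69.6%, beside 13.0% of all genes tested) and 0 lower. Among the 13 with a symbol 11 were called higher. The libraries of the 2 genotypes did not overlap for any of the 13, beside 77.9% of all genes tested. Their log2 differences ran from 0.66 to 1.83 with a median of 1.36, beside 0.01 over all genes tested. The 11 calls were kept under DESeq2 size factors and under total counts alone. These settings do not address variation between pools, which was not measured. With pools summed and an assumed coefficient of variation of 0.4, even the larger difference of the abundant gene ENSXETG00000024043 (2.13) was no longer called.

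The genes of complex I, the NADH dehydrogenase, gave the following levels. ND1 (2792 to 3759) had 1188, 1165 and 1018 CPM in TRα (-/-), against 436, 451 and 436 CPM in WT, a log2 difference of 1.35 ± 0.06 (SE; edgeR adjusted p = 3.89e-16). ND2 (3969 to 5004) had 883, 901 and 731 CPM in TRα (-/-), against 329, 336 and 281 CPM in WT. ND3 (9569 to 9911) had 356, 360.1 and 303 CPM in TRα (-/-), against 155, 146 and 151 CPM in WT. In each of these genes replicate 3 was the lowest of the TRα (-/-) libraries, and still above every WT library.

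ND4L (9981 to 10277) had 119, 123 and 115 CPM in TRα (-/-), against 36.5, 35.4 and 34.2 CPM in WT, a log2 difference of 1.75 ± 0.05 (SE; edgeR adjusted p = 2.23e-21). ND4 (10271 to 11648) had 909.8, 902 and 749 CPM in TRα (-/-), against 334, 334 and 289 CPM in WT. ND5 (11859 to 13676) had 575, 569 and 489 CPM in TRα (-/-), against 171, 170.1 and 160.0 CPM in WT, a log2 difference of 1.70 ± 0.07 (SE; edgeR adjusted p = 5.3e-18). ND6 (13668 to 14186), which lies on the minus strand, had far fewer reads, with 5.23, 4.62 and 7.49 CPM in TRα (-/-) against 2.22, 2.36 and 2.22 CPM in WT. Its log2 difference of 1.36 had the widest error of the set, ± 0.21 (SE; edgeR adjusted p = 2.19e-06). The spans of ND4L and ND4 overlap, as do those of ND5 and ND6, and reads in the overlaps cannot be assigned with certainty.

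Of the 2 subunit genes of ATP synthase, ATP8 rose most of all 13 genes. ATP8 (7874 to 8041) had 243, 243 and 192 CPM in TRα (-/-), against 62.3, 66.8 and 61.5 CPM in WT, a log2 difference of 1.83 ± 0.10 (SE; edgeR adjusted p = 2.89e-15). ATP6 (8032 to 8714), whose start lies within ATP8, had 1359, 1366 and 1115 CPM in TRα (-/-), against 428, 434 and 379 CPM in WT, a log2 difference of 1.63. CYTB (14258 to 15399), the cytochrome b subunit of complex III, had 2074, 2119 and 1922 CPM in TRα (-/-), against 915, 929 and 877 CPM in WT, a log2 difference of 1.17.

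The subunit genes of cytochrome c oxidase were the most abundant per kilobase of the 13, and COX1 and COX3 differed least. COX1 (5395 to 6951) had 8346, 8274 and 7813 CPM in TRα (-/-), against 5057, 5146 and 5260.6 CPM in WT. COX3 (8715 to 9498) had 7336, 7278 and 6845 CPM in TRα (-/-), against 4349, 4504 and 4621 CPM in WT. Both passed the test without reaching 2-fold, at log2 differences of 0.66 (edgeR adjusted p = 5.2e-15) and 0.67 (edgeR adjusted p = 2.17e-13). COX2 (7111 to 7798) had 5972, 5749 and 5233 CPM in TRα (-/-), against 2524, 2592 and 2424 CPM in WT, and was called at 1.17. Per kilobase of gene the mean level in TRα (-/-) was 5231 CPM for COX1, 8214 CPM for COX2 and 9124 CPM for COX3, against 3310.0, 3653 and 5729 CPM in WT.

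With T3 the mitochondrial genes gave smaller differences. The share of all counts was 2.12% ± 0.14 in TRα (-/-) and 2.47% ± 0.18 in WT (SD, n = 3 libraries each). None of the 13 genes was called, their median log2 difference was 0.21 with values from -0.74 to 0.59, and the libraries of 4 of the 13 did not overlap, beside 76.3% of all genes tested with T3. Under scaling by total counts alone the median of all genes tested moved by -0.51 with T3, which is more than this median.

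**Figure D3:**
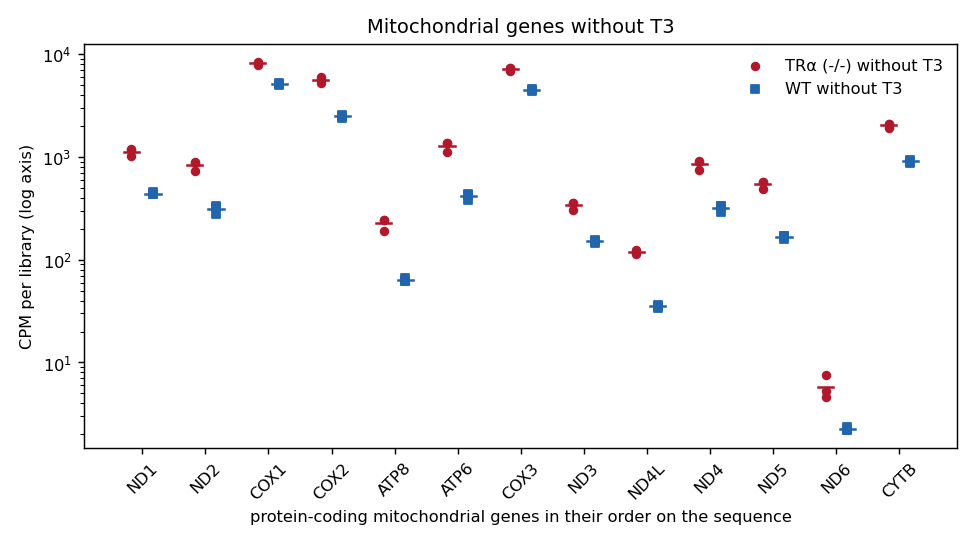
Level in each library (CPM, log axis) of the 13 protein-coding mitochondrial genes in their order along the sequence. Red circles are the TRα (-/-) libraries, blue squares the WT libraries, all without T3, and bars mark the means. Every red circle lies above every blue square of its gene. The means lie furthest apart for ATP8 and closest for COX1 and COX3.

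Genes called in the same direction were in places next to each other on the assembly. Among 12542 pairs of adjacent tested genes 271 were both higher, 96 both lower and 197 had 1 gene of each. A gene next to a higher gene was itself higher in 16.5% of cases, beside 13.0% of all genes tested. A gene next to a lower gene was itself lower in 10.8% of cases, beside 7.35%. Runs of at least 3 adjacent genes held 132 of the higher genes in 37 runs and 30 of the lower genes in 10 runs. The longest was a run of 7 mitochondrial genes, which includes ND3, ND4L, ND4, ND5, ND6 and CYTB, and no run of lower genes was longer than 3.

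Of the longest runs on nuclear scaffolds the one with the largest median lay on GL172646.1 from 5124826 to 5183110. Its 6 genes began with ENSXETG00000004489, and their median log2 difference was 4.43 without T3 and 0.31 with T3. ENSXETG00000031046 (5133554 to 5135755) had 34, 56 and 48 counts in TRα (-/-), against 3, 2 and 1 in WT. ENSXETG00000032142 (5143995 to 5146930) had 36, 28 and 40 counts in TRα (-/-), against 2, 0 and 1 in WT, and its log2 difference of 5.05 became 5.96 without WT replicate 1. The next genes were of like size: ENSXETG00000004495 had 23, 29 and 31 counts in TRα (-/-), against 1, 1 and 2 in WT, and ENSXETG00000004496 had 22, 31 and 31 in TRα (-/-), against 1, 2 and 2 in WT. In these 4 genes the TRα (-/-) libraries held 22 or more reads each and the WT libraries 3 or fewer. ENSXETG00000004489 alone of the run exceeded 10 CPM.

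ENSXETG00000031140, the fifth gene of the run, differed less, with 3.49, 3.90 and 3.84 CPM in TRα (-/-) against 1.84, 1.59 and 1.51 CPM in WT and a log2 difference of 1.19. It was the one gene of the 6 that was also called with T3, at 1.02, just over the 2-fold threshold. Under scaling by total counts alone the median of all genes tested moved by -0.51 with T3. The 3 tested genes on each side of the run had log2 differences from -0.06 to 0.82, so none of them was called. ENSXETG00000031046, ENSXETG00000004495 and ENSXETG00000004496 have exon lengths of 792, 744 and 792 bp in 6 blocks each, and reads shared between similar genes were not tested.

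Another run of 6 higher genes, singled out after its values were seen, lay on GL172650.1 from 2211914 to 2317301. It starts with the abundant gene ENSXETG00000024043 and ends with ENSXETG00000024049, both described above. ENSXETG00000027606 had 3589.7, 3774 and 3805 CPM in TRα (-/-), against 984, 975 and 954 CPM in WT, and ENSXETG00000024046 had 521, 522 and 533 CPM in TRα (-/-), against 18.8, 22.4 and 21.1 CPM in WT. The log2 differences were 1.94 ± 0.03 and 4.66 ± 0.05 (SE; edgeR adjusted p of 4.23e-26 and 8.93e-30). ENSXETG00000027604, at 4.05, and ENSXETG00000034152, at 3.58, share their start and cannot be separated with certainty.

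The values with T3 fell short of those without T3 by little at the start of this run and by much at its end. ENSXETG00000024043 gave 1.63 with T3 against 2.13 without, and ENSXETG00000027606 was called in both states. ENSXETG00000024046 had 532, 521 and 523 CPM in TRα (-/-) with T3, against 297, 298 and 302 CPM in WT with T3, a log2 difference of 0.81. Its level in TRα (-/-) was therefore nearly the same in both hormone states, while WT limbs were low without T3 and higher with it. The tested genes before the run had log2 differences from -0.18 to 0.02, and those after it 0.82, 0.59 and -2.05.

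The lower genes formed a run on GL173192.1 from 602540 to 703636, with a median log2 difference of -4.60. It holds ENSXETG00000017241 and 2 genes whose spans lie within ENSXETG00000017268, a tested gene that was not called. ENSXETG00000017270 (602540 to 640777, 41 exon blocks) had 0.197, 0.253 and 0.285 CPM in TRα (-/-), against 6.02, 5.67 and 6.41 CPM in WT, a log2 difference of -4.60 ± 0.21 (SE; edgeR adjusted p = 2.81e-16). ENSXETG00000017239 (649432 to 655106, 11 exon blocks) had 2.30, 2.63 and 3.22 CPM in TRα (-/-), against 34.8, 35.2 and 33.7 CPM in WT, a log2 difference of -3.66 ± 0.10 (SE; edgeR adjusted p = 1.42e-21). Because of the overlap both values are uncertain, although ENSXETG00000017268 itself had a log2 difference of -0.12. All 3 genes of the run were called higher in TRα (-/-) with T3, at 1.77, 1.84 and 1.25 in their order along the scaffold.

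Among runs of lower genes the next median in size, -1.67, was that on GL172653.1 from 4071966 to 4735301. The median of all lower genes was -1.32. ENSXETG00000021664 (4197204 to 4243914) had 3.65, 3.90 and 3.84 CPM in TRα (-/-), against 19.4, 20.9 and 21.3 CPM in WT, a log2 difference of -2.43. ENSXETG00000012179 (4733853 to 4735301) had 1.97, 1.90 and 1.71 CPM in TRα (-/-), against 5.80, 5.86 and 6.03 CPM in WT, a log2 difference of -1.67. ENSXETG00000021660, at -1.04, lay at the threshold. Its call was lost without TRα (-/-) replicate 3, where the value was -0.99.

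**Figure D4:**
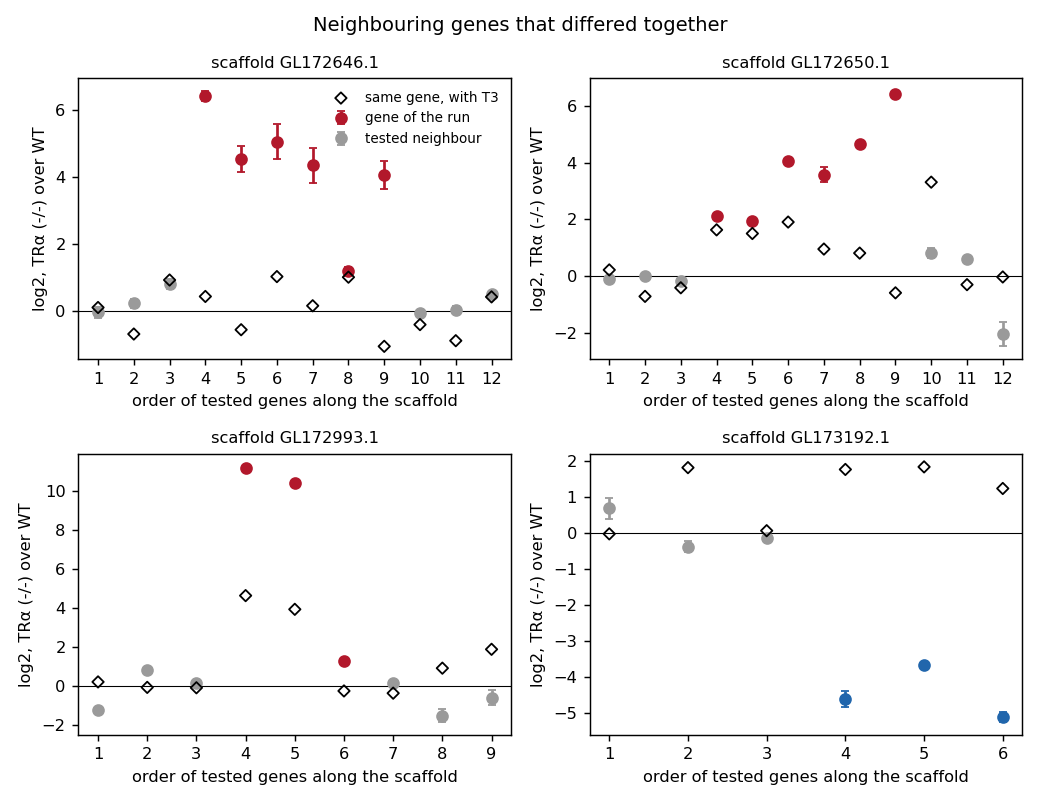
Log2 difference, TRα (-/-) over WT, of neighbouring tested genes in their order along 4 scaffolds. Filled circles are values without T3 with bars of 1 SE: red for the higher genes and blue for the lower genes of a run, grey for the tested genes beside it. Open diamonds are the values of the same genes with T3. In the GL172646.1 run ENSXETG00000031140 alone is called with T3, and the GL173192.1 run changes sign.

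The share of genes called higher differed between classes by number of exon blocks. Of the 629 tested genes with a single exon block 151 were higher (24.0%) and 49 lower (7.79%), and without the mitochondrial genes these were 135 of 606 (22.3%) and 49 (8.09%). The higher share was 16.9% for genes of 2 to 4 blocks, 14.6% for 5 to 9, 9.85% for 10 to 19 and 9.24% for 20 or more. The lower share stayed between 6.87% and 8.51% in all 5 classes. The median log2 difference was 0.23 for single-block genes and -0.16 for genes of 20 or more blocks, both smaller than a 2-fold difference. With T3 the same medians were 0.18 and -0.20. There 129 of the 629 single-block genes were higher, and 146 of the 2479 genes of 20 or more blocks. This difference between classes was thus present in both hormone states. These are descriptions of classes of genes, with no test.

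Genes were also split by mean level over all 12 libraries, those with T3 included, into 4 classes of 3580. In the class of lowest level, 0.0752 to 3.30 CPM, 709 genes were higher (19.8%) and 397 lower (11.1%). In the next classes, in order of level, the higher shares were 11.3%, 9.47% and 11.5%, and the lower shares 7.23%, 5.95% and 5.14%. Of the 528 genes higher by 4-fold or more 240 lay in the lowest class and 77 in the highest. Genes that overlap another gene gave shares near those of all genes: 97 of 720 overlapping genes were higher (13.5%) and 55 lower (7.64%). With T3, 778 genes of the lowest class by level were higher, beside 337, 206 and 312 in the next classes.

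Most genes called without hormone were not called with it at the 2-fold threshold. With T3, 1633 genes were higher in TRα (-/-) than in WT (11.4% of those tested) and 540 lower (3.77%). These libraries share none with the comparison without T3. Of the 1861 genes higher without T3, 216 were also higher with T3 (11.6%), 169 were lower (9.08%) and 1476 were not called (79.3%). Of the 1053 genes lower without T3, 30 were also lower with T3 (2.85%), 201 were higher (19.1%) and 822 were not called (78.1%). The shares in the same direction were near those of all genes tested, and the shares in the opposite direction were above them.

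With T3 the genes higher without T3 had a median log2 difference of -0.11, and the genes lower without T3 a median of 0.18. For larger differences the counts were these: of the 528 genes higher by 4-fold or more 86 were also higher with T3 (16.3%) and 82 lower (15.5%), and of the 137 lower by 4-fold or more 9 were also lower (6.57%) and 34 higher (24.8%). The 246 genes that differed in the same direction were 8.44% of the 2914 genes called without T3 and 11.3% of the 2173 called with T3.

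These counts, and calls of single genes with T3 that lie near 2-fold, depend on how the libraries with T3 are scaled. The most abundant genes took a smaller share of counts in WT with T3 than in the other groups. TMM factors were 0.926 to 0.956 in TRα (-/-) with T3 and 1.32 to 1.35 in WT with T3, beside 0.854 to 0.876 in TRα (-/-) and 0.918 to 0.921 in WT without T3. With total counts alone, 125 of the genes higher without T3 were higher with T3 and 460 were lower, while 170 of those lower without T3 were lower with T3 and 128 were higher. The share of higher genes among those called with T3 was then 23.8%, against 75.1% under TMM. The comparison without T3 moved less under the same change, by -0.09 in the median of all genes.

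**Figure D5:**
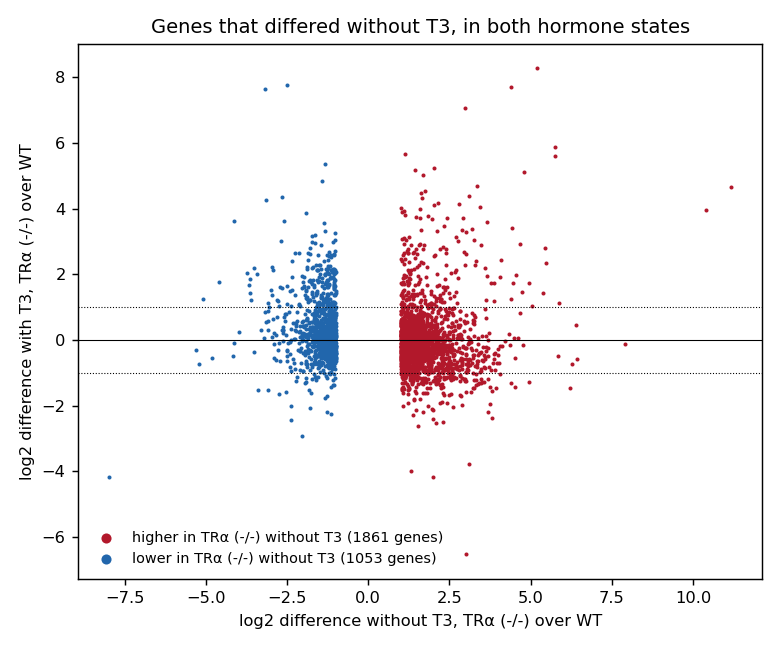
Log2 difference with T3 (vertical axis) against log2 difference without T3 (horizontal axis), TRα (-/-) over WT, for the 2914 genes called without T3. Red points are the 1861 higher and blue points the 1053 lower genes, and dotted lines mark 2-fold with T3. Most points lie between the dotted lines, and few of the blue points lie below the lower line.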

How the data were processed

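Poly-A RNA libraries were sequenced by the authors on an Illumina instrument. The submitters' processing notes name STAR 2.5.3a and featureCounts 1.4.6-p3. The paper gives later versions of both, and names the Ensembl JGI_4.2 assembly and DESeq2. The file deposited holds unnormalized counts of reads for each gene and library. Strand handling and multiply mapped reads are not given in the sources used here.

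Counts were tested in R 4.3.3 with edgeR 4.0.16 (filterByExpr, TMM, the quasi-likelihood test) in a fit of all 12 libraries that gave each group 1 mean. A call needed a Benjamini-Hochberg adjusted p below 0.05 and a difference of 2-fold or more. SE is the absolute log2 difference divided by the square root of F. The edgeR fit and its calls were tested on simulated data for the comparison without T3, and the other steps were not. The alternatives were DESeq2 1.42.0, its size factors, total counts alone, other filters, a replicate block, a fit of 6 libraries, summed pools, the 2-fold threshold within the test or dropped, and leaving out each library.

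Named genes were the 8 largest differences each way (no overlap, at least 5 CPM), the 4 largest gains and losses in CPM, up to 4 genes each way with at most 3 counts per library in 1 genotype, and the 2 longest runs each way. The mitochondrial genes and further runs were added after their values were seen. Members and lists were chosen with earlier results of these data known.

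Pairs of libraries within the 2 groups differed by more than sampling noise (chi-square per degree of freedom 1.92 to 6.19), so none was counted as a duplicate. A total of 720 tested genes overlap another gene in span, 152 of them called. Positions are those of the file. Symbols come from RefSeq (assembly UCB_Xtro_10.0). Columns of unmapped samples numbered 0.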

Additional observations from a re-analysis of the deposited data

Results flagged for a closer look

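The genotype difference with T3 differed from that without T3 (edgeR interaction test, adjusted p from 1.53e-27 for ENSXETG00000008836 to 0.00195 for ENSXETG00000007771) and by 2-fold or more for 39 of the 53 named genes. Of all genes tested 16.6% were called more negative and 17.7% more positive in this test. Values below are log2 differences, TRα (-/-) over WT, with T3 minus without T3. Most named genes were picked for a large difference without T3, which by itself pushes these values toward the opposite sign.

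The 22 genes with a more negative difference under T3 were higher in TRα (-/-) without T3. Of the largest differences, ENSXETG00000025667 gave -6.53, ENSXETG00000025664 -6.46, ENSXETG00000024049 -7.02, ENSXETG00000004489 -5.96, ENSXETG00000004749 -4.745, ENSXETG00000031753 -3.98 and ENSXETG00000013238 -3.23. Of the abundant genes, ENSXETG00000025663 gave -1.52 and ENSXETG00000010707 -1.56. ENSXETG00000007771 gave -2.61, and the genes of the GL172646.1 run gave -5.07 (ENSXETG00000031046), -4.01 (ENSXETG00000032142), -4.17 (ENSXETG00000004495) and -5.10 (ENSXETG00000004496). The mitochondrial genes gave -1.13 (ND1), -1.19 (ND2), -2.13 (ATP8), -1.71 (ATP6), -1.67 (ND4L), -1.23 (ND4), -1.44 (ND5) and -2.10 (ND6).

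The 17 genes with a more positive difference under T3 were lower in TRα (-/-) without T3. ENSXETG00000017241 gave 6.35, ENSXETG00000017270 6.37, ENSXETG00000027373 5.765, ENSXETG00000017239 5.50, ENSXETG00000012110 5.72, ENSXETG00000012572 3.59, ENSXETG00000030231 3.70 and ENSXETG00000019461 4.22. The abundant genes ENSXETG00000008836, ENSXETG00000006635, ENSXETG00000015477 and ENSXETG00000002211 gave 3.31, 1.84, 1.48 and 1.78. ENSXETG00000032369 gave 3.67, ENSXETG00000031149 4.23, ENSXETG00000005120 4.05, ENSXETG00000021664 3.29 and ENSXETG00000012179 1.71.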

How the results depend on the processing

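The calls were 1861 higher and 1053 lower genes in TRα (-/-) without T3, and 1633 and 540 with T3. Of those without T3, 246 differed in the same and 370 in the opposite direction with T3. Total counts alone gave 815 higher and 2609 lower with T3 and 588 opposite. At least 10 counts in every library gave 334 lower with T3, 121 same and 216 opposite. Pools summed with an assumed coefficient of variation of 0.2 gave 265 lower with T3, 134 same and 179 opposite, and with 0.4 gave 107 and 19 without T3, 64 and 9 with T3, 11 same and 0 opposite. A test against 2-fold gave 1240 and 636 without T3, 1048 and 217 with T3, 102 same and 151 opposite. The adjusted p alone gave 5565 and 5485, 5390 and 5403, 3923 same and 4588 opposite.

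Leaving out each replicate in turn gave 1858 to 1891 higher and 1049 to 1091 lower without T3, 1619 to 1652 and 530 to 594 with T3, 241 to 257 same and 361 to 382 opposite. Libraries of the same number did not deviate together (same-number correlations of -0.11, 0.036 and -0.054). The fit with the replicate number as a block gave 1864 and 1052, 1633 and 538, 245 same and 368 opposite.

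DESeq2 gave 1830 higher and 1059 lower without T3, with 2867 of the 2914 calls shared in direction. A fit of the 6 libraries without T3 alone gave 1741 higher and 1023 lower. No named gene changed sign under the alternatives run. An assumed coefficient of variation of 0.4 ended the call of 25 of the 53 named genes, and 0.2 that of ENSXETG00000002211 and ENSXETG00000021660. Leaving out TRα (-/-) replicate 3 ended that of ENSXETG00000021660. With at least 10 counts in every library 36 of the 53 could be tested. Variation between tadpoles was not measured.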
